A study of Mus musculus with 4 samples.

Results

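The Hox genes encode the homeodomain transcription factors that give cells a position along the body axis, and in the mouse they lie in the clusters named A, B, C and D. The genes described here were all those measured by a transcript cluster, the array's unit of measurement, that the platform annotation gave exactly 1 symbol, where that symbol was Hoxa, Hoxb, Hoxc or Hoxd followed by a number. This rule used names and no measured value. It gave 33 of the 39 Hox genes in RefSeq, among 30145 named genes in all: 8 of 11 in cluster A, 9 of 10 in cluster B, 9 of 9 in cluster C and 7 of 9 in cluster D. The chromosome written into the array identifier matched that of RefSeq for 33 of 33 (chromosome 6 for A, 11 for B, 15 for C and 2 for D). The other 6 were not analysed here. The rule left out 4 transcript clusters that carry a Hox symbol among several.

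The study compared regulatory T cells, CD4 T cells that are marked by Foxp3 and hold immune responses in check, taken from mouse spleens at an age of 7 to 8 weeks. CD4 cells were enriched with magnetic beads, and 15000 to 40000 cells with Foxp3-driven green fluorescence were sorted for RNA. In both groups the mice carried the Foxp3EGFP-cre transgene (B6-Tg(Foxp3EGFP-cre)1cJbs/J), which makes a fluorescent Cre recombinase under the control of Foxp3. In the arrays labelled WT (replicates 1 and 3) this transgene was crossed to C57BL/6. In those labelled KO (replicates 1 and 2) it was crossed to BMI1-flox C57BL/6, so that Bmi1 would be deleted in cells that express Foxp3. Sample titles and the treatment field describe unstimulated cells, but the text of the series mentions 24 h with αCD3/CD28, so the state of the cells is not settled. Nothing in the labels says that the 2 arrays of a group came from separate animals, so the p-values reflect the spread among these samples only, which may be technical. In such bulk samples, fewer cells of a type and less RNA per cell cannot be told apart.

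Hox genes of a cluster are known to be switched on in their order along the chromosome, so that low-numbered (anterior) genes act earlier and nearer the head than high-numbered (posterior) ones. Genes with the same number in different clusters, called paralogs, descend from a common ancestor and often share functions. Bmi1 is a subunit of Polycomb repressive complex 1, which keeps Hox genes silent outside their proper domain, and loss of Polycomb proteins in mouse embryos is known for misplaced Hox expression and altered vertebrae. In blood, Hox genes of clusters A and B are known for their expression in stem and progenitor cells and for being turned down as cells mature.

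The 4 arrays gave log2 expression values with medians over the named genes of 5.01 to 5.06. Bmi1, the targeted gene, stood at 8.98 in both arrays labelled WT and at 9.58 and 9.91 in KO replicates 1 and 2. It was thus higher where the label says it was deleted, by 0.77 (SE 0.16; limma adjusted p 0.298), and where its probes lie relative to the floxed exons was not known here. If they lie outside the deleted stretch, this value checks nothing. Directions below are therefore those between arrays labelled KO and arrays labelled WT. Markers of the sorted cell type were among the brighter genes: Cd3d, Cd3e, Cd3g, Cd2 and Cd4 stood at 12.55 to 17.62, and Il2ra, Ctla4, Ikzf2 and Tnfrsf18 at 11.89 to 15.15. Those first 5 genes, general T cell markers, all had the higher KO mean (51.1% of all genes). For 4 of them both arrays labelled KO lay above both labelled WT (21% of all genes). Cd3e differed by 0.565 (limma p 0.000188, adjusted p 0.139) and Cd3d by 0.155 (limma p 0.0165, adjusted p 0.382). The part of these differences in the Hox values was not tested. The other 2 measured regulatory T cell markers differed between the groups in opposite directions: Lrrc32 by -1.34 (limma p 0.00303, adjusted p 0.295) and Gpr83 by 1.15 (limma p 0.00895, adjusted p 0.35), and their part in the Hox values was not tested. Of the CD8 T cell markers, Cd8a stood at 4.07 to 4.23 and Cd8b1 at 9.74 to 11.26. Foxp3 itself was not analysed here.

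Hox genes gave low signals in these regulatory T cells, and Hoxb3 was the single member to reach the median gene of an array. The table has no detection call, so the level of each member was set against the other genes of its array. Over the 4 arrays, 22 of the 33 members lay below the first quartile of genes each time, and 9 never did. The median member had 14% of the named genes below it, with a range from 0.362% for Hoxc5 to 50.1% for Hoxb3. No statement on which Hox genes are expressed follows from these positions, since probes differ in how brightly they respond.

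**Figure D1:**
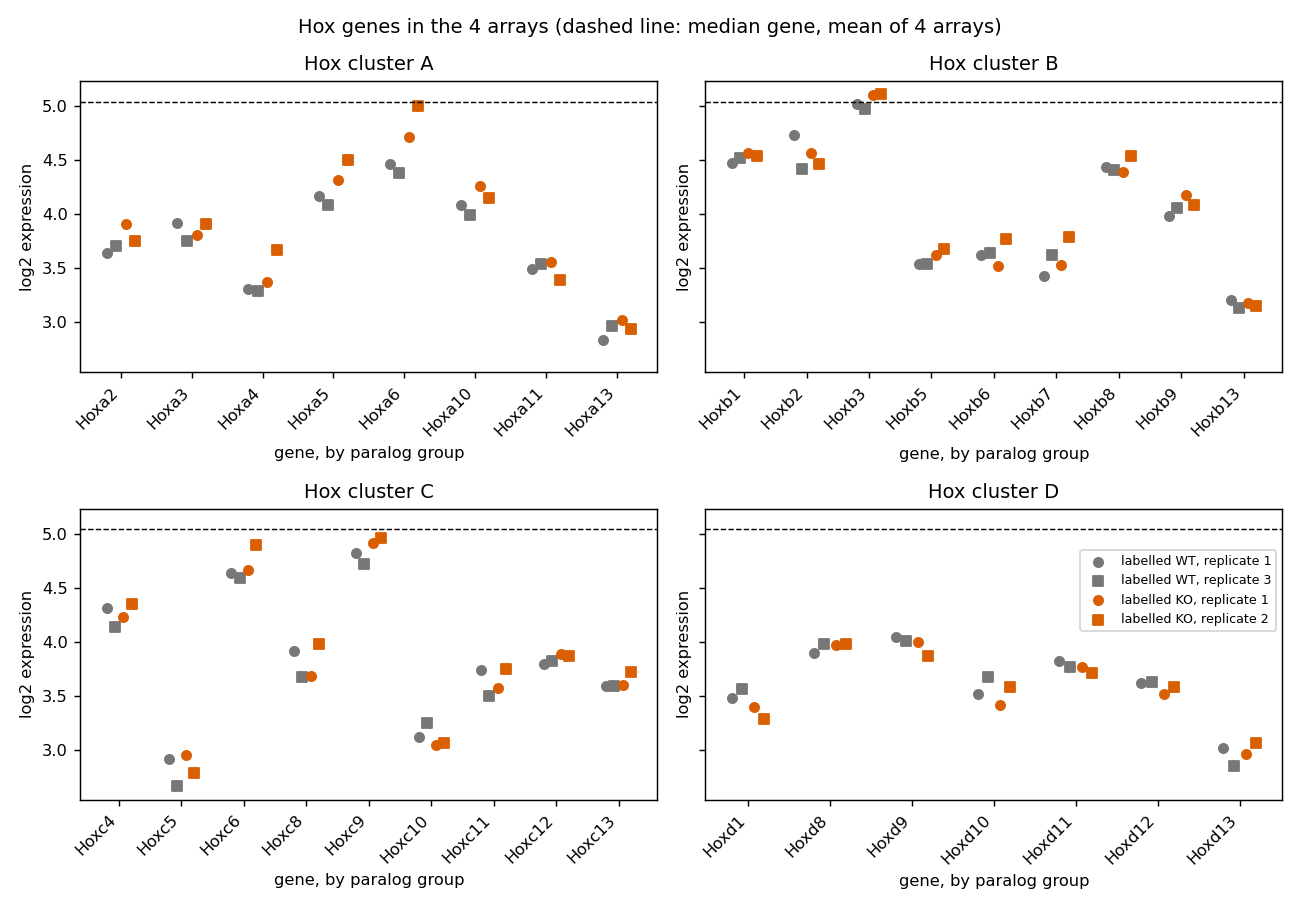
Log2 expression (vertical axes) of the 33 Hox genes, by paralog number within clusters A to D, with 1 point for each array; the dashed line marks the median gene, averaged over the 4 arrays. All points lie at or below 5.11, and Hoxb3 alone exceeds the line; Hoxa4, Hoxa5 and Hoxa6 in cluster A have both points of the arrays labelled KO above those labelled WT.

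The design asks whether the Hox genes differ between Foxp3-expressing cells with and without the floxed Bmi1 allele. In the limma test over all 30145 genes, 0 of the 33 members passed an adjusted p of 0.05, against 0.00663% of all genes (2 genes). Before adjustment, limma gave a p under 0.05 to 2 members that were higher in the arrays labelled KO, Hoxa5 and Hoxa6, and to 0 that were lower. Over all genes these shares were 6.36% and 3.76%, and over the 9147 protein-coding genes below the median gene they were 1.59% and 2.61%. These low protein-coding genes were not matched to the Hox genes in level. Their middle gene had 24.8% of the named genes below it, against 14% for the Hox genes. The 2 members of 33 are close to the share of all genes. That count of 2 went to 0 without WT replicate 1, without WT replicate 3 or without KO replicate 2, and to 3 without KO replicate 1. The shares over all genes were not computed for those fits. With all 4 arrays, the lowest limma adjusted p among the members was 0.382, for Hoxa6.

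Small differences leaned towards the arrays labelled KO. The KO mean was above the WT mean for 24 members and below it for 8, and Hoxb13 had equal means. Over all genes the KO mean was above in 51.1% and below in 47.9%. The median difference over the members was 0.07 on the log2 scale, where that of all genes was 0.005. Among the low protein-coding genes the KO mean was above in 43.4% and below in 55%, and the median difference was -0.02. The members' median dropped to 0.025 without WT replicate 3 and likewise without KO replicate 2. Of the single members, 19 differed by less than 0.1 and 15 by less than their own standard error, and the fold values ran from 0.883 for Hoxd1 to 1.35 for Hoxa6.

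Of the 33 members, 13 had both arrays labelled KO above both labelled WT, against 21% of all genes and 12.3% of the low protein-coding genes. A further 4 had both below, against 17.5% and 19.1%. With each array centred on its median, these counts were 9 and 5. The other 16 had arrays that overlapped between the groups. With 2 arrays against 2, the smallest two-sided p of an exact permutation test on a single gene is 0.333, so this separation is a description. The 95% intervals of limma included 0 for 31 members and lay above 0 for Hoxa5 and Hoxa6. Across the members they reached from -0.39 for Hoxb2 to 0.75 for Hoxa6. Each interval is for 1 gene on these arrays and is not adjusted for the number of members. For the 22 members below the first quartile of genes in every array, low signal limits what an interval can show. The intervals therefore set no bound on the change of the members as a set.

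**Figure D2:**
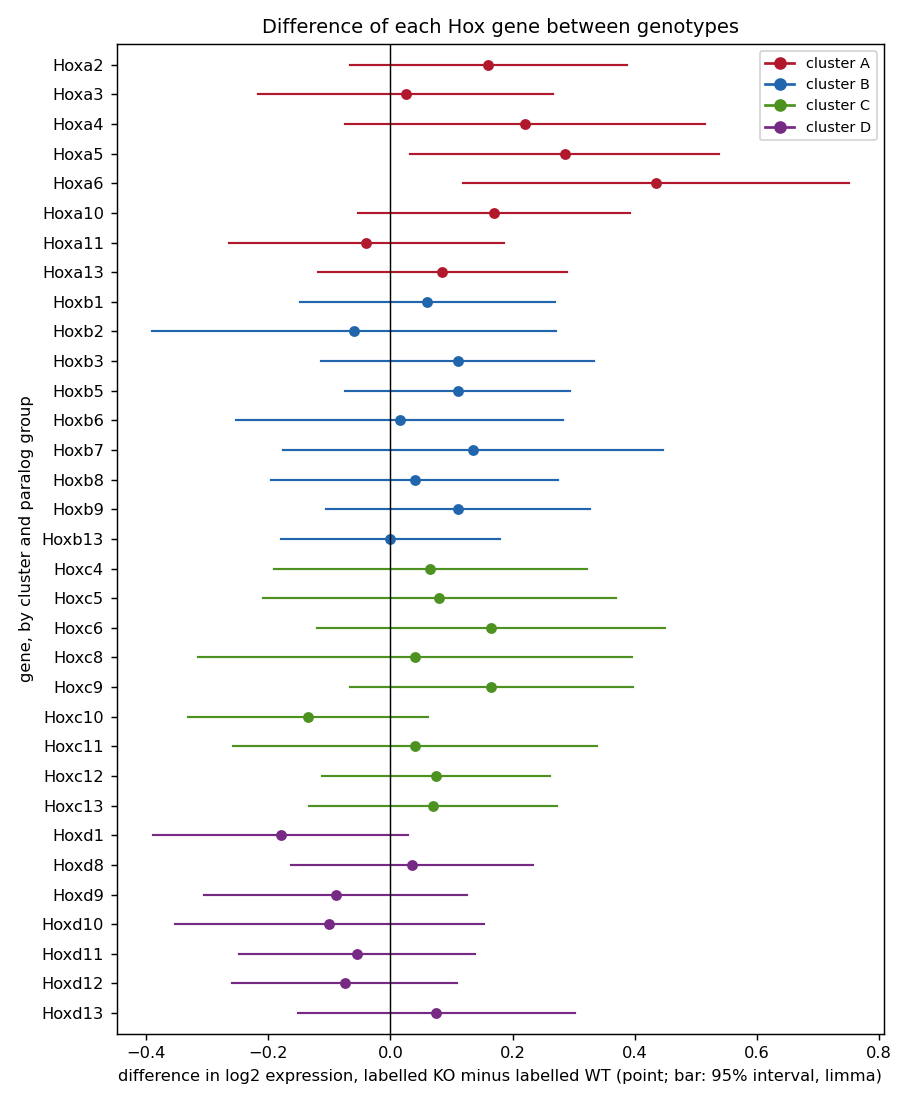
Difference in log2 expression between the arrays labelled KO and those labelled WT (horizontal axis) for each of the 33 Hox genes, grouped by cluster; points are differences of 2 arrays against 2 and bars are 95% intervals from limma. The bars of Hoxa5 and Hoxa6 alone exclude 0, and the points of cluster D lie mostly left of 0.

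In cluster A, 7 of 8 members had the higher mean in the arrays labelled KO, with a median difference of 0.17, and 5 of 8 had both arrays labelled KO above both labelled WT, as did 21% of all genes. Hoxa5 and Hoxa6, neighbours in the middle of the cluster that act in the lower neck and chest region of the axial skeleton, differed most. Hoxa5 is also known for its role in lung development. The median of cluster A dropped to 0.10 without KO replicate 1, and was 0.16 to 0.17 without each other array.

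Hoxa6 (transcript cluster TC0600002280.mm.1) stood at 4.46 and 4.38 in WT replicates 1 and 3 and at 4.71 and 5.0 in KO replicates 1 and 2. Both arrays labelled KO lay above both labelled WT, and the gap between the groups' nearest arrays was about as wide as the gap between the KO replicates themselves. The difference was 0.44 (SE 0.12, 95% interval 0.12 to 0.75), a fold of 1.35, with a limma p of 0.0163 and an adjusted p of 0.382. Of the 9147 protein-coding genes below the median gene, 35 (0.383%) had a difference as high or higher. Hoxa6 stayed higher without each array in turn, by 0.29 to 0.58.

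Hoxa5 (TC0600002279.mm.1) stood at 4.17 and 4.08 in WT replicates 1 and 3 and at 4.32 and 4.50 in KO replicates 1 and 2. The groups did not overlap. The difference was 0.29 (SE 0.10, 95% interval 0.03 to 0.54), a fold of 1.22, with a limma p of 0.0337 and an adjusted p of 0.441. Among the same low protein-coding genes, 126 (1.38%) had a difference as high or higher, which is again a rank and not a p-value. Without each array in turn the difference of Hoxa5 was 0.20 to 0.38.

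Hoxa4 (TC0600002278.mm.1), the neighbour on the other side of Hoxa5 and a gene of neck patterning, stood at 3.31 and 3.29 in WT replicates 1 and 3 and at 3.37 and 3.67 in KO replicates 1 and 2. Most of its difference of 0.22 (SE 0.12; limma adjusted p 0.607) came from KO replicate 2, and without that array it was 0.07. The RefSeq span of Hoxa3 covers those of Hoxa4, Hoxa5 and Hoxa6, and the antisense gene Hoxaas3 overlaps Hoxa5 and Hoxa6. Without the probe positions and their strand, signal from these overlapping transcripts cannot be told apart. Hoxa3, needed for the thymus and the pharyngeal arches, stood at 3.92 and 3.75 in the WT arrays and 3.81 and 3.91 in the KO arrays, which overlapped.

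The promoters of the 2 genes with the lowest p are shown with that of Hoxd1, the member that differed most in the opposite direction, since Polycomb complexes in mammals bind at stretches rich in CG dinucleotides. Each run is the 250 bases before the annotated start of the gene in RefSeq, assembly GRCm38.p6, read 5′ to 3′ on the gene's own strand, with each CG in capitals. Hoxa5 lies on the minus strand (chr6:52204588-52204837), as does Hoxa6 (chr6:52208673-52208922), and Hoxd1 on the plus strand (chr2:74762730-74762979).
Hoxa5: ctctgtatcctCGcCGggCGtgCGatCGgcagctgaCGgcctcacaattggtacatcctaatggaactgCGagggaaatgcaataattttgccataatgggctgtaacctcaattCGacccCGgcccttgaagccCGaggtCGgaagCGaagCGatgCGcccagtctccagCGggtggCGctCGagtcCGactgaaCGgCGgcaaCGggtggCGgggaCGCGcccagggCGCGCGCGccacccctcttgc
Hoxa6: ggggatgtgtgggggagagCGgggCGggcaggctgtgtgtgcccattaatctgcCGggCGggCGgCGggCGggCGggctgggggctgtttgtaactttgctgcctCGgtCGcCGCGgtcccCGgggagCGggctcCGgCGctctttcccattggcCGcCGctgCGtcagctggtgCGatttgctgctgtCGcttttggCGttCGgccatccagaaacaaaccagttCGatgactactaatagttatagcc
Hoxd1: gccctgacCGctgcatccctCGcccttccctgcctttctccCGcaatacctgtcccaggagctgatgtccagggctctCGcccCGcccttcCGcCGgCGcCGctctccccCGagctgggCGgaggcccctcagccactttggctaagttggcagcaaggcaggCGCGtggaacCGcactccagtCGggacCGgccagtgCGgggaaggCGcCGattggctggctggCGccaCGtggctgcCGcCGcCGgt
The printed runs hold 28 CG in Hoxa5, 24 in Hoxa6 and 24 in Hoxd1. All of these promoters are rich in CG, whichever way the gene differed. In the 300-base windows from 250 bases before to 50 after the start, the ratio of observed to expected CG was 1.02 for Hoxa5, 0.923 for Hoxa6 and 0.805 for Hoxd1, where all 32841 promoters of the RefSeq table had a median of 0.384. Binding of Polycomb proteins was not measured in these arrays.

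The table held 19 promoters for 17 of the 33 members, and the other 16 members had no entry. Their median ratio of observed to expected CG was 0.754, and 11 of 19 (57.9%) reached 0.6, a share that was 35.8% over all promoters. Median GC content was 60.3% in the members and 52.7% in all. By cluster, 6 of 8 promoters in A and 4 of 8 in D reached that ratio, which is a description of the reference sequence and not of these cells. The letters TGATNNAT, a form of the site bound jointly by PBX and HOX proteins, occurred on either strand in 4 of 19 member promoters (21.1%) and in 8.85% of all promoters: those of Hoxa2, Hoxb1, Hoxb8 and 1 of 2 entries for Hoxd11. Neither the Hoxa5 nor the Hoxa6 window held these letters. The letters TATAAA, searched on either strand, occurred in 3 of 19 (15.8%) and in 13.6% of all promoters.

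The other members of cluster A had smaller differences. Hoxa2, which patterns the second pharyngeal arch, averaged 3.67 in the arrays labelled WT and 3.83 in those labelled KO, a difference of 0.16 (SE 0.09; limma adjusted p 0.628). Hoxa10, a posterior gene known in the uterus and in myeloid progenitors, differed by 0.17 (SE 0.09; limma adjusted p 0.599). Both had arrays that did not overlap between the groups. Hoxa11, a gene of forelimb and uterus, was the single member of the cluster with a lower KO mean: it stood at 3.49 and 3.54 in WT replicates 1 and 3 and at 3.56 and 3.39 in KO replicates 1 and 2. These arrays overlapped, and the difference of -0.04 was smaller than its standard error of 0.09. Hoxa13, which shapes digits and the genital tract, was among the faintest members, at 2.83 to 3.02, and its arrays overlapped.

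In cluster B, 7 of 9 members had the higher mean in the arrays labelled KO and 1 the lower, with a median difference of 0.06. The brightest Hox gene on the arrays was Hoxb3, a gene of hindbrain and pharyngeal patterning that is also transcribed in blood progenitors. Hoxb3 (TC1100001499.mm.1) stood at 5.02 and 4.97 in WT replicates 1 and 3 and at 5.10 and 5.11 in KO replicates 1 and 2. The groups did not overlap, but the difference was 0.11 (SE 0.09; limma adjusted p 0.762) and its interval ran from -0.11 to 0.33. Its RefSeq span overlaps Hoxb4, Mir10a and Hoxb3os, whose signal cannot be told apart from it here. Hoxb3os, measured separately, differed by -0.04 (SE 0.10).

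Hoxb7 had the highest difference of cluster B and Hoxb2 the lowest, and in neither did the arrays of the groups separate. Hoxb7 stood at 3.43 and 3.62 in WT replicates 1 and 3 and at 3.53 and 3.79 in KO replicates 1 and 2. Its difference of 0.14 (SE 0.12) had a limma adjusted p of 0.793, and it was 0.27 without KO replicate 1, 0.23 without WT replicate 3, 0.04 without WT replicate 1 and 0.005 without KO replicate 2. Hoxb2, which specifies hindbrain segments, stood at 4.73 and 4.42 in the WT arrays and at 4.57 and 4.46 in the KO arrays. WT replicates 1 and 3 thus differed more from each other than the groups did, and the SD of 0.22 was the widest of any member. The difference of Hoxb2 was -0.06 (SE 0.13), and without WT replicate 1 it turned positive.

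Of the remaining cluster B genes, Hoxb1, Hoxb5 and Hoxb9 had both arrays labelled KO above both labelled WT, with differences of 0.06 to 0.11 and limma adjusted p of 0.692 to 0.876. With Hoxb3, 4 of 9 members of cluster B were apart and higher, against 21% of all genes and 12.3% of the low protein-coding genes. None was apart and lower, against 17.5% and 19.1%. Hoxb1 marks a single hindbrain segment in the embryo. Hoxb6 and Hoxb8, the latter known in microglia-forming and myeloid progenitors, differed by 0.02 and 0.04, less than their standard errors of 0.11 and 0.09. Hoxb13, a gene of tail and prostate that stands apart from the rest of its cluster, averaged 3.17 in both groups. The cluster B median was lowest without KO replicate 2, at 0.02, and highest without KO replicate 1, at 0.12.

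In cluster C, 8 of 9 members had the higher KO mean, with a median difference of 0.07, and this median was -0.02 without WT replicate 3 and 0.01 without KO replicate 2. Hoxc6 and Hoxc9 shared the highest difference, 0.17. Hoxc9 (TC1500001119.mm.1), a chest-level gene that acts in motor neuron identity, stood at 4.82 and 4.72 in WT replicates 1 and 3 and at 4.91 and 4.96 in KO replicates 1 and 2. Hoxc6 (TC1500001121.mm.1), a gene of forelimb-level and mammary patterning, stood at 4.64 and 4.59 in the WT arrays and at 4.66 and 4.90 in the KO arrays. Neither overlapped between the groups, yet KO replicate 1 of Hoxc6 lay within 0.02 of the nearest WT array. Their limma adjusted p were 0.624 for Hoxc9 and 0.703 for Hoxc6. The difference of Hoxc6 was 0.045 without KO replicate 2 and 0.285 without KO replicate 1, and that of Hoxc9 was 0.115 to 0.215 without each array in turn.

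Hoxc10, a hindlimb gene, was the single member of cluster C that was lower in the arrays labelled KO. It stood at 3.12 and 3.25 in WT replicates 1 and 3 and at 3.04 and 3.06 in KO replicates 1 and 2, with a difference of -0.14 (SE 0.08; limma adjusted p 0.642). The arrays did not overlap, but all of its values were low, with 1.7% of named genes below its mean. Hoxc12 and Hoxc13, the latter required for normal hair and nails, also had arrays that did not overlap, at differences of 0.08 and 0.07. In all, 4 of 9 members of cluster C were apart and higher, against 21% of all genes and 12.3% of the low protein-coding genes. Only 1 was apart and lower, against 17.5% and 19.1%. Hoxc4, Hoxc5, Hoxc8 and Hoxc11 differed by 0.04 to 0.08 with overlapping arrays. In each of these the difference changed sign when 1 array was left out.

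Cluster D leaned the other way. Of its 7 members, 5 had the lower mean in the arrays labelled KO and 2 the higher, with a median difference of -0.08. Hoxd1, Hoxd9 and Hoxd12 had both arrays labelled KO below both labelled WT, and 0 of 7 had both above. Over all genes the shares below and above were 17.5% and 21%, and over the low protein-coding genes 19.1% and 12.3%. Of the low protein-coding genes, 55% had the lower KO mean. The cluster's mean level was 3.63 and 3.64 in WT replicates 1 and 3 and 3.58 in both KO replicates, so the gap between groups was close to 0.06. The median moved to -0.05 without KO replicate 1 and to -0.025 without KO replicate 2. Whether cluster D differed from the other clusters was not tested, because genes of a cluster on the same arrays are not replicates.

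Hoxd1 (TC0200001101.mm.1), the most anterior gene of its cluster, which acts in sensory neurons, was the lowest of all members by difference. It stood at 3.48 and 3.56 in WT replicates 1 and 3 and at 3.40 and 3.28 in KO replicates 1 and 2. The groups did not overlap and the difference was -0.18 (SE 0.08, 95% interval -0.39 to 0.03), a fold of 0.883, with a limma p of 0.0776 and an adjusted p of 0.547. Hoxd13, at the other end of the cluster and required for digits, had the highest difference of cluster D, at 3.02 and 2.85 in the WT arrays against 2.96 and 3.06 in the KO arrays. Its arrays overlapped, and the difference of 0.08 (SE 0.09) was negative without WT replicate 3.

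Between them lie genes of trunk and limb patterning. Hoxd9 differed by -0.09 (SE 0.08), Hoxd10 by -0.10 (SE 0.10), Hoxd11 by -0.06 (SE 0.08), Hoxd12 by -0.08 (SE 0.07) and Hoxd8 by 0.04 (SE 0.08), with limma adjusted p of 0.802 to 0.932. Hoxd9 differed by -0.025 without KO replicate 2 and by -0.155 without KO replicate 1, and Hoxd10 by -0.015 without KO replicate 1, by -0.025 without WT replicate 3, by -0.175 without WT replicate 1 and by -0.185 without KO replicate 2. Hoxd10 and Hoxd11 overlap in RefSeq and may share signal. Mean levels by cluster set D apart from the others in direction only. Cluster A averaged 3.74 and 3.71 in the WT arrays and 3.87 and 3.91 in the KO arrays, cluster B 4.05 and 4.03 against 4.07 and 4.12, and cluster C 3.87 and 3.77 against 3.84 and 3.93. For cluster A the groups' means did not overlap, for B they did not overlap either, but the nearest arrays of the groups were closer to each other than the KO replicates were, and for C they overlapped.

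**Figure D3:**
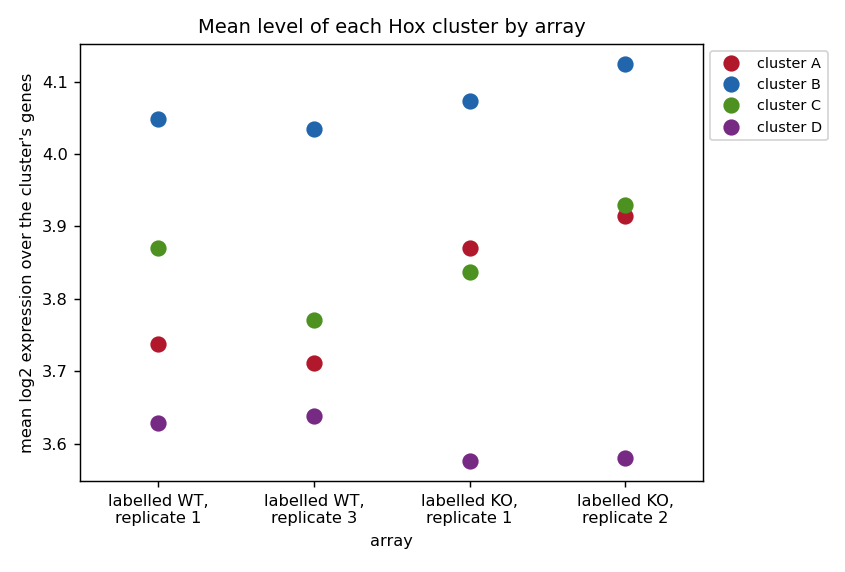
Mean log2 expression over the genes of each Hox cluster (vertical axis) in each of the 4 arrays (horizontal axis). The points of cluster A lie at 3.74 and 3.71 in the arrays labelled WT and at 3.87 and 3.91 in those labelled KO, and those of cluster D at 3.63 and 3.64 against 3.58; the vertical axis does not start at 0.

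By position, the 12 central members (paralog groups 4 to 8) all had the higher mean in the arrays labelled KO, with a median difference of 0.095. Of these, 5 had both arrays labelled KO above both labelled WT (21% of all genes), and the median was 0.04 without KO replicate 2. Hoxb6, Hoxb8, Hoxc4, Hoxc5, Hoxc8 and Hoxd8 among them turned to a lower KO mean when 1 array was left out. The 6 anterior members (groups 1 to 3) split into 4 higher and 2 lower, with a median of 0.04. The 15 posterior members (groups 9 to 13) split into 8 higher, 6 lower and 1 equal, also with a median of 0.04, which turned to -0.02 without WT replicate 3. The anterior median was 0.01 without WT replicate 3 and 0.10 without WT replicate 1. The position classes were not tested against each other.

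Differences between paralogs were not tested. In group 6, Hoxa6 differed by 0.44, Hoxc6 by 0.17 and Hoxb6 by 0.02. In group 5, Hoxa5 differed by 0.29, Hoxb5 by 0.11 and Hoxc5 by 0.08. The 3 members of group 8 lay close together, at 0.04 each. Opposite signs occurred, among others, in group 1 (Hoxb1 0.06, Hoxd1 -0.18) and in group 10 (Hoxa10 0.17, Hoxc10 -0.14). Across the 33 genes, which share the 4 arrays and are not independent, the paralog number and the difference had a Pearson r of -0.16 and a Spearman rho of -0.18, and the mean level and the difference had 0.37 and 0.32.

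**Figure D4:**
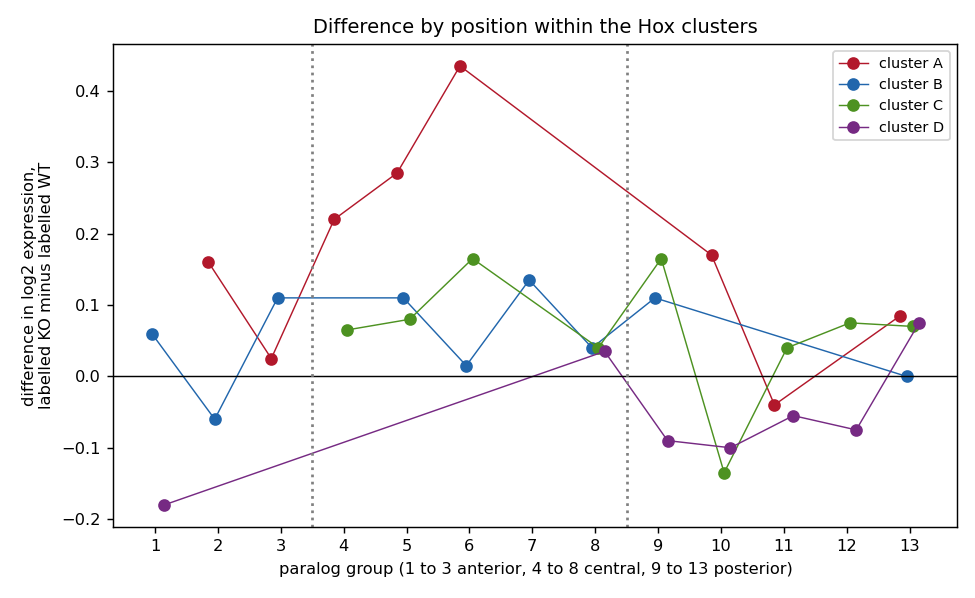
Difference in log2 expression between the arrays labelled KO and those labelled WT (vertical axis) against paralog group 1 to 13 (horizontal axis), coloured by cluster; lines join measured genes of a cluster and pass over those not analysed here. Cluster A peaks at groups 5 and 6 with 0.29 and 0.44, while most other points lie between -0.18 and 0.17.

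Array by array, KO replicate 2 gave the highest value of 16 of the 33 members and WT replicate 3 the lowest of 17. KO replicate 2 was above WT replicate 3 for 24 members, and KO replicate 1 was above WT replicate 1 for 18. Within the groups, KO replicate 2 was above KO replicate 1 for 20 members and below it for 13, with a median difference of 0.05. WT replicate 3 was above WT replicate 1 for 13, below it for 18 and equal for 2, with a median of -0.03. Between the groups, the members' median for KO replicate 1 was 0.02 against WT replicate 1 and 0.06 against WT replicate 3. For KO replicate 2 it was 0.07 and 0.13. These pairs had medians of -0.01 to 0.02 over all genes. The correlation between arrays was 0.955 to 0.976 over the members and 0.991 to 0.994 over all transcript clusters, and these values describe the arrays, since members are not replicates. In cluster A, KO replicate 1 was above WT replicate 1 for 7 of 8 genes and above WT replicate 3 for 8 of 8, and KO replicate 2 was above each WT array for 6 of 8.

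**Figure D5:**
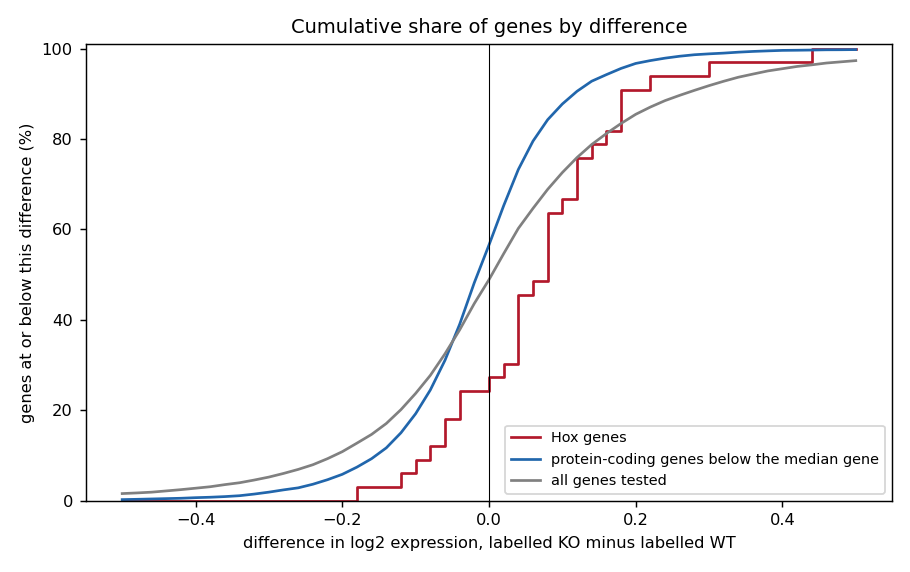
Cumulative share of genes in percent (vertical axis) at or below a given difference in log2 expression between arrays labelled KO and labelled WT (horizontal axis), read in steps of 0.02, for the 33 Hox genes, the protein-coding genes below the median gene and all genes tested. The line of the Hox genes lies to the right of the others around 0, with a median of 0.07 against -0.02 for the low protein-coding genes and 0.005 for all genes.

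Other developmental transcription factors, chosen by name as Sox, Pax, Lhx, Nkx or Dlx followed by a number, are likewise known as classical Polycomb targets that are mostly silent in T cells. Of these 52 genes, 32 had the higher mean in the arrays labelled KO and 19 the lower (61.5% higher, where the Hox genes had 72.7%), with a median difference of 0.02. Their arrays did not overlap for 10 higher and 7 lower. Over all genes these shares were 21% and 17.5%, and over the low protein-coding genes 12.3% and 19.1%. Sox4 alone had an unadjusted limma p under 0.05, with a difference of 0.58 (limma adjusted p 0.479). It was the brightest of the 52, with 82.7% of named genes below its mean. It stood at 8.44 and 8.88 in WT replicates 1 and 3 and at 9.42 and 9.05 in KO replicates 1 and 2. Of all genes, 6.36% were higher at that threshold. The shares of the Hox genes and of these factors were not tested against each other.

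Hox proteins bind DNA together with the TALE homeodomain cofactors of the Pbx, Meis and Pknox families. Of 9 such genes, 8 were measured: 3 had the higher and 5 the lower KO mean, with a median difference of -0.03, and limma gave 0 an adjusted p under 0.05 and 1 an unadjusted one. That gene was Meis1, the partner of HOX proteins in blood stem cells. It was higher in the arrays labelled KO, as were 6.36% of all genes at an unadjusted limma p under 0.05. Meis1 stood at 4.84 and 4.77 in WT replicates 1 and 3 and at 5.23 and 5.31 in KO replicates 1 and 2. The groups did not overlap for Meis1, at a difference of 0.47 (SE 0.09; limma p 0.00367, adjusted p 0.295). Pknox1 differed by -0.34 (limma adjusted p 0.617), Pbx4 by 0.22 (0.6) and Pbx3 by -0.12 (0.818).

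Known upstream regulators of the Hox clusters include the Cdx factors, the retinoic acid receptors and the Kmt2a (MLL) histone methyltransferase complex, which counters Polycomb. All 18 genes of that list were measured, with 7 higher and 11 lower, a median difference of -0.01 and 0 with an unadjusted limma p under 0.05. The largest were Rarg at 0.25, Kdm6a at -0.24, Ctcf at 0.18 and Kmt2a at -0.14. Among Polycomb subunits, 19 of 21 were measured, with 12 higher and 7 lower and a median of 0.09. At an unadjusted limma p under 0.05, 6.36% of all genes were higher and 3.76% lower. Of the 19 subunits, 3 had such a p, all higher: Cbx8 (0.70, adjusted p 0.298), Bmi1 and Ring1 (0.34, adjusted p 0.425). None of these passed the adjusted threshold. The next by size was Eed at 0.31 (adjusted p 0.553).

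The Hox clusters also hold microRNA genes and noncoding transcripts. The list held named microRNA genes, measured or not, and other noncoding transcripts only where a value existed. It does not cover all such transcripts, and 6 of its 8 entries were measured. Of these, 1 had the higher KO mean and 5 the lower, with a median of -0.10, opposite in sign to that of the Hox genes themselves. At an unadjusted limma p under 0.05, 3.76% of all genes were lower. None of the 6 passed after adjustment, and before it Mir196a-1 and Mir10b had a limma p under 0.05, both lower. Their mature sequences in RefSeq (GRCm38.p6) are printed with the seed, bases 2 to 8, in capitals, since the seed sets which messages a microRNA can bind, and mmu-miR-196a is known to act on Hox messages such as that of Hoxb8.
mmu-miR-10b-5p: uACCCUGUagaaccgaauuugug
mmu-miR-196a-5p: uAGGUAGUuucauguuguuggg
The seeds differ. The gene of mmu-miR-10b-5p lies in cluster D (mature form at chr2:74726074-74726096, plus strand). The mmu-miR-196a-5p sequence is made from a gene in cluster B, Mir196a-1 (chr11:96265187-96265208, plus strand), and from one in cluster C, Mir196a-2 (chr15:102973365-102973386, plus strand).

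Mir196a-1 stood at 4.92 and 4.78 in WT replicates 1 and 3 and at 4.55 and 4.45 in KO replicates 1 and 2. The arrays did not overlap and the difference was -0.35 (SE 0.10; limma p 0.015, adjusted p 0.38). Mir10b stood at 3.21 and 3.18 in the WT arrays and at 2.82 and 3.03 in the KO arrays, likewise without overlap, at -0.27 (SE 0.09; limma p 0.0322, adjusted p 0.437). Mir196a-2, which shares its 5p mature sequence with Mir196a-1 but not its 3p one, differed by -0.09 (SE 0.10), and Mir615 by 0.14 (SE 0.14). Hotair, the noncoding RNA of cluster C, differed by -0.11 (SE 0.14). The labels do not say whether the RNA kept small molecules, and whether the probes read mature or precursor forms was not known here.

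Genes flanking the clusters on the chromosome were listed under 20 names, of which Lnp and Lnpk mean the same gene. For 17 of these names there was a transcript cluster on the chromosome of a Hox cluster. Of these, 10 had the higher and 6 the lower KO mean, with a median of 0.06, and limma gave 0 an unadjusted p under 0.05. The largest were Calcoco1 at 0.29, Cbx1 at 0.27, Skap1 at -0.26 and Skap2 at 0.22. The limma adjusted p of Skap2 was 0.723. Evx1 and Evx2, homeobox genes at the posterior ends of clusters A and D, differed by -0.03 and 0.09.

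Markers of other cells were compared over the same arrays. Blood progenitors, known for Hox expression, were followed by Kit, Cd34, Flt3, Gata2 and Mecom, whose mean was 4.29 and 4.22 in the WT arrays and 4.25 and 4.30 in the KO arrays. Of these 5, 3 were higher and 2 lower, 0 had an unadjusted limma p under 0.05, and Kit alone reached the median gene, at 5.02 to 5.44. Plasma cell markers were higher in the arrays labelled KO for 4 of 5 genes, with means of 6.58 and 6.69 against 7.01 and 6.92. Jchain differed by 1.03 (limma adjusted p 0.202) and Mzb1 by 0.395 (limma adjusted p 0.35). Xbp1 differed by 0.205, Prdm1 by 0.065 and Sdc1 by -0.03, each with arrays that overlapped between the groups. Myeloid markers were lower for 6 of 6, with means of 4.42 and 4.35 against 4.26 and 4.21. Lyz2 (-0.25, limma p 0.0305, adjusted p 0.433) and S100a8 (-0.325, limma p 0.0362, adjusted p 0.45) had an unadjusted p under 0.05. That share was 3.76% of all genes. B cell markers were lower for 4 of 4 measured, with Pax5 at 3.86 to 3.91 and Cd79b at 7.42 to 7.91. Stroma markers were lower for 3 of 3 measured, and the erythroid gene Alas2 differed by -0.06. Of the myeloid markers 5, and of the B cell markers 3, lay below the median gene. KO means were higher for 51.1% and lower for 47.9% of all genes, and lower for 55% of the low protein-coding genes. The part of these marker differences in the Hox values was not tested.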

How the data were processed

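Total RNA of 4 samples was profiled on 1-colour arrays. The authors deposited 1 table of log2 values for 65528 transcript clusters, made with RMA (robust multi-array average) and with Transcriptome Analysis Console, per the submitters' processing notes. Genome build and hybridisation were not given in the sources used here, and the extract and label fields describe real-time PCR. Of the clusters, 30675 had 1 symbol. Symbols were updated through RefSeq (GRCm38.p6), and where a gene had several clusters the one with the highest mean was kept (420 genes), which left 30145 genes.

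Differences (KO minus WT, 2 arrays each, from the sample titles) were fitted with limma 3.58.1 in R 4.3.3 (lmFit, eBayes with an intensity trend, two-sided) over all genes, without a filter on dim genes, and adjusted by Benjamini-Hochberg. The procedure was tested on simulated data. The number of arrays limits the precision. No detection call, batch or scan date was given.

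The members and lists were chosen with earlier results of these data known. Arrays are described one by one for members with an unadjusted p under 0.05, members at or above the median gene in any array, the 3 brightest members, the highest and the lowest difference of each cluster, and Bmi1. Of other lists at most 4 genes are named, by p and then by size of difference, apart from markers. Mir196a-2, Hoxb3os, Evx1, Evx2 and the array values of Hoxa3 and Hoxa4 were added after their values were seen.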

Additional observations from a re-analysis of the deposited data

How the results depend on the processing

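11 alternatives were compared: centring each array on its median, a further quantile normalization, dropping genes below the first quartile of means, averaging a gene's clusters, testing all transcript clusters, eBayes with no trend, eBayes with robust settings, and leaving out each array in turn. In all of these 0 members passed the adjusted threshold (lowest limma adjusted p 0.32). In each alternative that measured them, 15 higher and 6 lower members kept their sign. The 11 that turned did so only when an array was left out, and Hoxb13, with a difference of 0, then ran from -0.035 to 0.035.

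With centred arrays the median difference was 0.05 in cluster B and -0.085 in cluster D. With quantile normalization it was 0.07 in B, -0.0587 in D and 0.06 over the posterior members. The filter on dim genes left 11 members, none of them in cluster D, and 10 of these were higher in KO. Arrays were apart and higher for 8 and lower for 0. These shares were not computed over the genes passing the filter, and without it they were 21% and 17.5% of all genes. The filter changed no difference, so the counts describe the brighter members. Their medians were 0.11 over all, 0.29 in cluster A, 0.17 in C and 0.17 over the posterior members. The median of all genes passing the filter was 0.02. Testing all transcript clusters gave an unadjusted p under 0.05 to 1 higher member.

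Leaving out each array in turn gave 18 to 25 members higher in KO, 16 to 21 with arrays apart and higher, 5 to 8 apart and lower (2 arrays against 1 separate more easily), and 0 to 3 higher with an unadjusted p under 0.05. The median difference ran from 0.025 to 0.08 over all members, 0.0975 to 0.1725 in cluster A, 0.015 to 0.115 in B, -0.02 to 0.16 in C, -0.075 to -0.025 in D, 0.0125 to 0.1025 over the anterior, 0.0375 to 0.165 over the central and -0.015 to 0.045 over the posterior members. Bmi1 differed by 0.60 to 0.93. The members that changed sign ran as follows: Hoxa3 -0.06 to 0.11, Hoxa11 -0.125 to 0.045, Hoxb2 -0.215 to 0.095, Hoxb6 -0.11 to 0.14, Hoxb8 -0.035 to 0.115, Hoxc4 -0.02 to 0.15, Hoxc5 -0.045 to 0.205, Hoxc8 -0.11 to 0.19, Hoxc11 -0.08 to 0.16, Hoxd8 -0.005 to 0.075 and Hoxd13 -0.01 to 0.16. The cause was not tested. In these fits the lone array of a group is assumed to vary like the other group.

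No paired analysis was possible because the groups share only replicate number 1. Signals near the bottom of the scale limit what the arrays can show for 22 members below the first quartile of genes, and 2 arrays a group limit every comparison.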
